A study of Mus musculus with 24 samples.

Results

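Sodium, calcium and cation channel genes were followed through 4 mouse brain regions in animals with and without Cdr1as, a circular RNA of neurons. The set holds 29 genes of 37621 counted features: 7 sodium channel subunits (Scn1a, Scn2a, Scn3a, Scn8a, Scn2b, Scn3b, Scn4b), 8 pore-forming calcium channel subunits (Cacna1a to Cacna1e and Cacna1g to Cacna1i), 7 auxiliary calcium channel subunits (Cacna2d1 to Cacna2d3 and Cacnb1 to Cacnb4), 3 HCN channels (Hcn2, Hcn3, Hcn4), and the cation channels Nalcn, Trpc1, Trpc4 and Trpc5. The genes were chosen by name, with no measured value in the rule, and all 29 were matched by Ensembl ID and passed the filter on low counts in every comparison. Poly(A)-selected RNA came from dissected cerebellum, cortex, hippocampus and olfactory bulb of C57BL/6 mice, either wild type or Cdr1as knockout, with 3 libraries in each of the 8 groups and 24 in all. No other allele or treatment is given in the sources used here, nor are age, sex or the number of animals. No source says that the 3 libraries of a group came from different animals, and the p-values below therefore cover the variation among these libraries, which may be technical.

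Voltage-gated sodium channels carry the upstroke of the action potential. Their alpha subunits (Scn1a, Scn2a, Scn3a, Scn8a) form the pore, and their beta subunits tune its gating and bind it to other membrane proteins. Voltage-gated calcium channels couple depolarization to transmitter release, firing pattern and gene expression. Their pores are high-threshold (Cacna1a to Cacna1e) or low-threshold T-type (Cacna1g, Cacna1h, Cacna1i), and the beta and alpha2delta subunits govern how many high-threshold channels reach the membrane. HCN channels open on hyperpolarization and pace rhythmic firing, Nalcn carries a resting sodium leak, and Trpc channels pass cations downstream of receptors coupled to phospholipase C.

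Cdr1as is best known for binding the microRNA miR-7, so the miR-7 sequences and their matches among the channel genes are shown first, from RefSeq (GRCm38.p6) and the GENCODE M21 transcripts. The mature miR-7a and miR-7b share their seed, bases 2 to 8, set in capitals.

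mmu-miR-7a-5p: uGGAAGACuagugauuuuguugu

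mmu-miR-7b-5p: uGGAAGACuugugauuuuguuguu

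The seed match, GTCTTCC on the transcript strand, was searched in the longest annotated 3′ untranslated region of each gene. It was present in 3 of 29 channel genes (10.3%) and in 2093 of 15168 tested coding genes (13.8%). The 3 sites, each with the bases that precede it, are shown with the match in capitals, and in Cacna1e an A follows the match.

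Scn2b: gtgcctcctgctgatGTCTTCC

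Cacna1c: gtgaaaaagagcctgGTCTTCC

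Cacna1e: tgtagtgctccttgGTCTTCCA

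The match followed by A (GTCTTCCA, which contains the shorter match) stood in this 1 channel gene (3.45%) and in 624 of all those genes (4.11%). A match is a run of letters and not a tested site.

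Library depth was 21.1 to 40.5 M gene counts (M, mega). Cdr1asG, a feature for the Cdr1as locus, was 2.23 to 29.04 CPM (counts scaled to 1 M gene counts per library) in the wild-type libraries and 0.115 to 1.95 CPM in the knockout libraries, and the genotypes did not overlap within any region. Markers of bulb cells, granule cells and excitatory neurons fitted the dissections, whereas those of striatum and choroid plexus, given below, varied between libraries of the same region. In wild-type tissue 7 bulb markers summed to 1900 to 2009 CPM in the bulb and to at most 223 CPM elsewhere, and 7 granule cell markers summed to 4373 to 4831 CPM in the cerebellum and to at most 313 CPM elsewhere. Markers of excitatory neurons summed to 4347 to 6754 CPM in wild-type cortex and hippocampus and to at most 1510 CPM in the other regions. These are bulk tissues, in which fewer cells of a type and less RNA per cell cannot be told apart.

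The libraries numbered 2 stood apart from numbers 1 and 3 in both genotypes of the cerebellum, hippocampus and bulb, and the channel genes were among those touched. The longest coding transcript of the 29 genes had a median of 7122 bases, against 3292 bases for 13609 coding genes, and 15 of the 29 reached 7000 bases. For those 15 the median of number 2 minus the mean of numbers 1 and 3 was -0.40 (wild type) and -0.34 (knockout) log2 in the cerebellum, -0.48 and -0.54 in the hippocampus, and -0.69 and -0.61 in the bulb. All 1317 coding genes of that length lay at -0.27, -0.27, -0.49, -0.43, -0.54 and -0.51 in the same order, so the long channel genes moved as other long genes did, or somewhat further. In the cortex the 15 genes lay at 0.03 and -0.04, and the shorter channel genes lay between -0.07 and 0.14 in the other 6 groups. Trpc5 was an exception to length: its coding transcript has 4158 bases, and it was 5.89-fold lower in number 2 (median over the 6 groups). Cacna1c and Cacna1e, the longest members at 13162 and 14921 bases, were 2.64-fold and 2.57-fold lower. GC content of the longest coding transcript went with the shift too. Over the 13609 genes its Spearman correlation with the number 2 difference was 0.48 (wild type) and 0.58 (knockout) in the cerebellum. It was 0.35 and 0.38 in the hippocampus, and 0.38 and 0.37 in the bulb. For length the values were -0.27 and -0.21, -0.37 and -0.20, and -0.51 and -0.46. The parts of length and GC were not separated. What sets these libraries apart was not tested, and results that rest on them are given with and without them. The plot of number 2 against transcript length shows the pattern gene by gene.

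**Figure D1:**
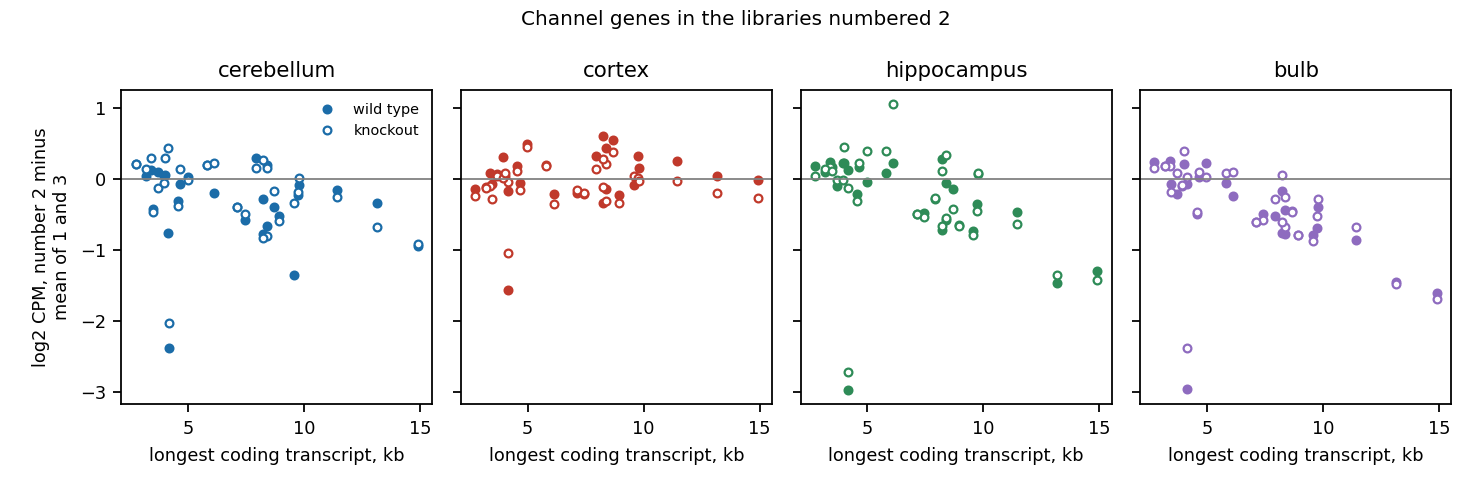
Each point is 1 channel gene. The x axis is the length of its longest coding transcript in kilobases and the y axis is log2 CPM (pseudocount 0.5) of library 2 minus the mean of libraries 1 and 3, for wild type (filled) and knockout (open) in each region. Most of the longest genes sit below 0 in cerebellum, hippocampus and bulb, with exceptions such as Cacna1a (0.29) and Cacna1g (0.20) in wild-type cerebellum and Cacna1h (0.27) in wild-type hippocampus, and the lowest point in each panel is Trpc5.

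Which channel genes mark which region was asked first in the wild-type libraries. A difference among the 4 regions was found for 25 of 29 genes (86.2%) by the edgeR quasi-likelihood test at an adjusted p under 0.05, against 67.8% of all 16729 genes tested. The knockout libraries, which share no sample with that comparison, gave 24 of 29 (82.8%) against 75.1% of all genes. Cacna1c, Cacna1e, Nalcn and Trpc5 did not pass in either genotype, and Hcn2 did not pass in the knockout. Without the libraries numbered 2, 29 of 29 passed in the wild type (68.3% of all genes) and 27 of 29 in the knockout (75.8% of all genes). Equal-numbered wild-type libraries deviated together in 5 of 6 pairs of regions, the exception being cerebellum and hippocampus. With the number as a block 27 of 29 passed in the wild type (76.9% of all genes), Nalcn and Trpc5 now among them (adjusted p = 0.00645 and 0.00127), and blocked values are given below where they change a call in a region pair that is named.

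The highest mean lay in the cerebellum for 8 genes and in the cortex, hippocampus and bulb for 7 each. The lowest lay in the bulb for 12 genes, in the cerebellum for 10, in the hippocampus for 6 and in the cortex for 1, Cacna1d. Both genotypes had the same highest region for 28 of 29 genes, the exception being Scn8a, and the same lowest region for 27 of 29, the exceptions being Hcn2 and Nalcn. In 15 genes the highest and lowest wild-type means differed by over 4 times. The map of all 29 genes shows the wild-type pattern repeated in the knockout groups.

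**Figure D2:**
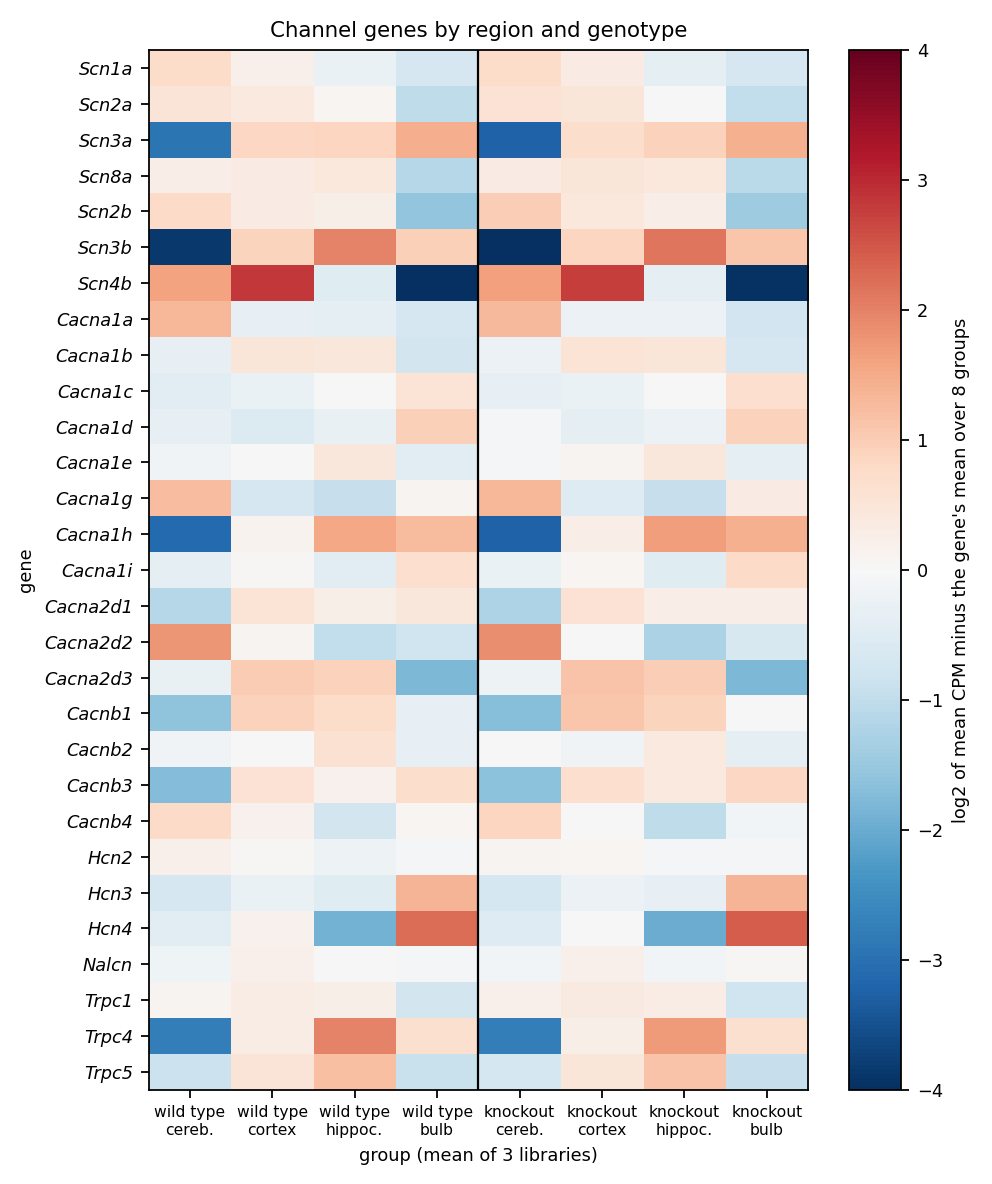
Rows are the 29 genes and columns the 8 groups (mean of 3 libraries), and colour is log2 of the group's mean CPM minus the gene's mean over the 8 groups. Scn3a, Scn3b, Cacna1h and Trpc4 are lowest in the cerebellum of both genotypes, and Scn4b and Cacna2d3 are lowest in the bulb.

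By pairs of regions, the cerebellum and bulb differed in the most channel genes and the cortex and hippocampus in the fewest. Between wild-type cerebellum and bulb 22 of 29 genes passed, 11 higher and 11 lower in the cerebellum, with 46.4% of all genes called, 22.7% higher and 23.7% lower. Cerebellum and hippocampus differed in 19 genes, 9 higher and 10 lower in the cerebellum (49.0% of all genes, 24.3% higher and 24.7% lower). Cerebellum and cortex differed in 17, of which 4 were higher and 13 lower in the cerebellum (53.7% of all genes, 26.5% higher and 27.3% lower). Hippocampus and bulb differed in 18, 11 higher and 7 lower in the hippocampus (40.9% of all genes, 20.9% higher and 19.9% lower), and cortex and bulb in 16, 10 higher and 6 lower in the cortex (44.3% of all genes, 22.7% higher and 21.6% lower). Cortex and hippocampus differed in 8, 4 in each direction (13.5% of all genes called), in 13 without the libraries numbered 2 (17.1% of all genes), and in 13 with the replicate number as a block (20.3% of all genes). The knockout libraries gave 24, 18, 17, 20, 19 and 10 genes for the same pairs, with 52.4%, 57.4%, 59.7%, 46.7%, 48.7% and 21.0% of all genes called. Of the 10 for cortex against hippocampus, 6 were higher and 4 lower in the cortex (11.7% and 9.27% of all genes), and 7 passed and reached 2-fold (7.21% of all genes). Without the libraries numbered 2 that pair gave 18 genes (26.3% of all genes).

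Of the sodium channel pores, Scn1a, Scn2a and Scn8a had their lowest mean in the bulb, and Scn2a and Scn8a were above it in each of the other 3 regions. Scn2a, the main sodium channel of unmyelinated axons, averaged 440 CPM in the wild-type cerebellum, followed by the cortex at 403, the hippocampus at 329 and the bulb at 152, and the cerebellum exceeded the bulb by 1.53 log2 (SE 0.24, adjusted p = 0.000310). No difference was detected between cerebellum and cortex or between cortex and hippocampus (adjusted p = 0.687 and 0.501), whereas hippocampus and bulb did (0.00338). Scn8a, the sodium channel of nodes of Ranvier and initial segments, was 442 CPM in hippocampus, 412 in cortex, 394 in cerebellum and 149 in bulb (hippocampus minus bulb 1.57 log2, SE 0.22, adjusted p = 0.000127). Scn1a, the channel of fast-spiking interneurons, went in smaller steps from 247 CPM in cerebellum to 93.2 in bulb (1.41 log2, SE 0.26, adjusted p = 0.000829), and no neighbouring pair of its means passed. With the block cerebellum and cortex (0.47 log2, adjusted p = 0.00753), cortex and hippocampus (0.50, 0.0186) and hippocampus and bulb (0.44, 0.0147) each did.

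Scn3a, the sodium channel pore best known from the embryonic brain, went the other way. Its CPM in the 3 wild-type bulb libraries were 91.9, 56.4 and 104, and in the cerebellum 7.95, 1.54 and 2.72. Every bulb library exceeded every cerebellum library, by 4.39 log2 in the fit (SE 0.53, adjusted p = 6.53e-05). Hippocampus (55.9 CPM) and cortex (54.8 CPM) lay between with no difference detected between them (adjusted p = 0.984). The knockout libraries gave 4.64 log2 (SE 0.36) for bulb minus cerebellum.

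The 3 sodium channel beta subunits each had a different high region. Scn2b, which covalently binds the pore subunits, was 553, 488 and 478 CPM in wild-type cerebellum and 107, 100.2 and 90.4 CPM in bulb. Cortex (374) and hippocampus (353) lay between, both below the cerebellum (adjusted p = 0.00531 and 0.00191), and the bulb was lowest (cerebellum minus bulb 2.35 log2, SE 0.12, adjusted p = 1.33e-08).

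Scn3b, a beta subunit that is not covalently bound, was 409.6, 400.1 and 333 CPM in wild-type hippocampus and 11.1, 4.045 and 4.66 CPM in cerebellum. The hippocampus minus cerebellum difference was 5.86 log2 (SE 0.34, adjusted p = 9.77e-08), and 6.23 (SE 0.20) in the knockout. Bulb (188 CPM) and cortex (177 CPM) had no detected difference (adjusted p = 0.820), and both were below the hippocampus (adjusted p = 0.0116 and 0.0200).

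Scn4b, known for promoting the resurgent sodium current of fast-firing neurons, spanned the widest range of the 29 genes. It was 184, 384 and 406 CPM in wild-type cortex, averaged 140.0 ± 6.61 (SD, n = 3) in cerebellum and 32.7 ± 2.08 in hippocampus, and was 2.23, 3.09 and 2.96 CPM in bulb. All 4 regions differed from their neighbours in this order (adjusted p at most 0.00105), and cortex exceeded bulb by 6.87 log2 (SE 0.31, adjusted p = 2.60e-08). The cortex libraries disagreed among themselves, and the knockout cortex did too at 350.3, 371 and 211 CPM. Markers of the striatum, a neighbouring region, moved with these values: 7 of them, chosen after values were seen and none at 0 counts, summed to 722, 1333 and 1292 CPM in wild-type cortex libraries 1 to 3 and to 1049, 1261 and 736 CPM in the knockout ones. In the other wild-type regions they summed to at most 317 CPM. Their part in the cortex value of Scn4b was not tested.

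Scn2b and Scn4b are neighbours on mouse chromosome 9, on the same strand, with 8324 bases from the end of Scn2b to the start of Scn4b, yet their regional levels differ as above. Their promoters (250 bases before to 50 after the start, RefSeq, GRCm38.p6) are shown because they differ in composition too, with CG pairs in capitals. The distance instead uses GENCODE M21 gene bounds, where Scn2b starts at 45117782 and Scn4b at 45138395. Part of each promoter as printed lies inside those bounds. Scn2b at chr9:45117626-45117925 (plus strand) holds 2 CG pairs at 38.3% GC, and Scn4b at chr9:45138374-45138673 (plus strand) holds 26 at 66.3% GC. Of 32851 promoters, 85.9% have at least 2 CG pairs and 16.9% at least 26. RefSeq promoters were matched for 23 of the 29 genes.

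Scn2b promoter: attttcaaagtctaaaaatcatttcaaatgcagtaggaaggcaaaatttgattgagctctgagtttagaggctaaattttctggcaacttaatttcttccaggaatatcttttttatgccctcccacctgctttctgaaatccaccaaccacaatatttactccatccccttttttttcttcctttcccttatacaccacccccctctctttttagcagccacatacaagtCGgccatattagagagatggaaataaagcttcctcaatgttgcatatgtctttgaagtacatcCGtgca

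Scn4b promoter: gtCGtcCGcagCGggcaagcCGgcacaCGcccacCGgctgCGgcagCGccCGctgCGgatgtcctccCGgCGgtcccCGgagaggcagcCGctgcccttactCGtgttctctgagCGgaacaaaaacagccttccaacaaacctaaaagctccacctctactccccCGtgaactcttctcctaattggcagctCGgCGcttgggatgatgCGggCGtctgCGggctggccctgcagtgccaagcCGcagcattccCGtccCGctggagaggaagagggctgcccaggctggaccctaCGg

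The plot of regional levels gives these genes library by library, beside the other genes with a wide range.

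**Figure D3:**
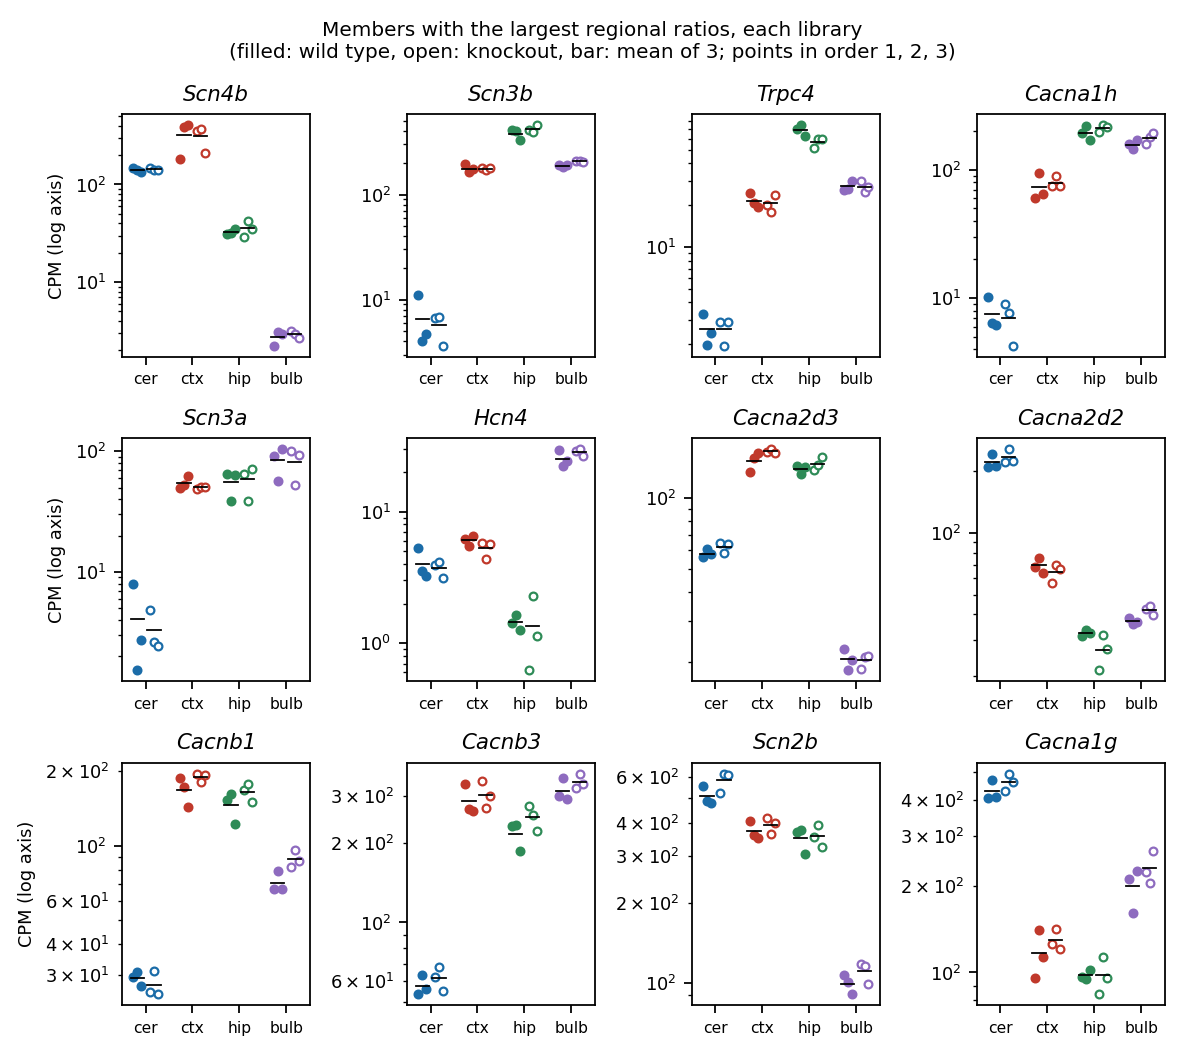
CPM on a log axis for channel genes with wide regional ranges, 1 panel a gene, with 3 libraries per region and genotype as points. In Scn3b the hippocampus libraries sit at 333 CPM or more while the cerebellum libraries sit at 11.1 CPM or less.

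Among the calcium channel pores, Cacna1a stood out in the cerebellum. Cacna1a forms the P/Q-type channel of fast transmitter release and Purkinje cells, and mutations in it cause ataxia. Its CPM were 519.7, 678 and 593 in wild-type cerebellum and 174.0, 115.0 and 157 in bulb, with 190.1 in cortex and 183 in hippocampus. Only the cerebellum differed from its neighbour in this order (cerebellum minus cortex 1.65 log2, adjusted p = 6.06e-06), and the cerebellum exceeded the bulb by 2.005 (SE 0.17, adjusted p = 1.28e-06). The 6 markers of Purkinje cells summed to 6259 to 7633 CPM in wild-type cerebellum and to at most 1071 CPM elsewhere, with 1 of them at 0 counts in a hippocampus library, and their part in the regional difference was not tested.

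Cacna1b, the N-type pore of transmitter release, was instead highest in cortex (155 CPM) and hippocampus (150.2), followed by cerebellum (88.4) and bulb (65.6), and cortex exceeded bulb by 1.24 log2 (SE 0.18, adjusted p = 0.000227). Cacna1d, an L-type pore that opens at relatively negative potentials, was highest in the bulb at 183 CPM against 65.1 to 76.5 CPM elsewhere (bulb minus cortex 1.495 log2, SE 0.19, adjusted p = 7.11e-05). Cacna1c, the other L-type pore, was 149, 53.1 and 143 CPM in bulb and 62.7, 49.8 and 64.1 in cerebellum, a difference of 0.97 log2 that did not pass (SE 0.42, adjusted p = 0.0861). Without the libraries numbered 2 the difference was 1.21 and passed (adjusted p = 1.18e-05), as did 0.86 with the block (0.0422). Cacna1e, the R-type pore, behaved alike: hippocampus at 509, 192 and 441 CPM and bulb at 268, 85.6 and 258 differed by 0.90 log2 (adjusted p = 0.149), by 0.85 without number 2 (adjusted p = 0.000483) and by 0.93 with the block (0.0232).

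The 3 T-type pores, which open near rest and support burst firing, split by region. Cacna1g was 407, 469.8 and 412 CPM in wild-type cerebellum and 96.4, 94.7 and 102 in hippocampus, with 199.9 in bulb and 117 in cortex. Cerebellum exceeded hippocampus by 2.14 log2 (SE 0.16, adjusted p = 3.69e-07). Cacna1h showed the reverse, at 192, 218 and 169 CPM in hippocampus against 10.2, 6.37 and 6.12 in cerebellum (4.68 log2, SE 0.24, adjusted p = 2.69e-08). Its bulb level of 157 CPM had no detected difference from the hippocampus (adjusted p = 0.272), and cortex at 72.7 CPM lay below the bulb. Cacna1i was highest in the bulb at 224 CPM and lowest in the hippocampus at 105 (1.10 log2, SE 0.12, adjusted p = 1.81e-05).

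The beta subunits, which bind the pore in the cytoplasm, differed in where they were low: Cacnb1 and Cacnb3 in the cerebellum, Cacnb4 in the hippocampus. Cacnb4, mutated in the lethargic mouse, was 498, 302 and 540.5 CPM in wild-type cerebellum and 167, 109 and 196 in hippocampus (1.503 log2, SE 0.29, adjusted p = 0.00123). Within each region library 2 was the lowest of the 3. Cortex (296 CPM) and bulb (275) lay between, and the cerebellum was not detectably above them (adjusted p = 0.101 and 0.0670), whereas with the block it was (0.56 and 0.69 log2, adjusted p = 0.00141 and 0.000397). Cacnb1 was 187, 172 and 143 CPM in cortex and 29.4, 30.8 and 27.2 in cerebellum (2.52 log2, SE 0.14, adjusted p = 2.72e-08), with 146 in hippocampus and 70.8 in bulb. Cacnb3 was 299.5, 349 and 291 CPM in bulb and 53.7, 63.6 and 56.4 in cerebellum (2.44 log2, SE 0.13, adjusted p = 3.24e-08), with 288 in cortex and 216 in hippocampus. For both genes the cerebellum libraries lay below every library of the other regions. Cacnb2 varied least, from 92.4 CPM in hippocampus to 48.4 in bulb (0.93 log2, SE 0.13, adjusted p = 0.000102).

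Of the alpha2delta subunits, extracellular proteins that bind gabapentin in the case of Cacna2d1 and Cacna2d2, Cacna2d2 was a cerebellar gene. Its wild-type CPM were 210.2, 242 and 213 in cerebellum and 31.2, 33.6 and 32.5 in hippocampus (2.77 log2, SE 0.09, adjusted p = 5.81e-10), with 69.2 in cortex and 37.0 in bulb. Cacna2d1 had the opposite low end, with 98.0 CPM in cerebellum and 254 to 318 CPM in the other regions (cortex minus cerebellum 1.70 log2, SE 0.20, adjusted p = 1.90e-05). Cacna2d3 was 129, 148 and 156 CPM in cortex and 22.9, 18.6 and 20.4 in bulb (2.81 log2, SE 0.10, adjusted p = 5.31e-09), and no difference from hippocampus was detected (133 CPM, adjusted p = 0.516).

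Of the HCN channels, Hcn2 was nearly level and Hcn3 and Hcn4 were high in the bulb. Hcn4, the main pacemaker channel of the heart, was 29.2, 22.3 and 24.2 CPM in wild-type bulb and 1.42, 1.64 and 1.26 in hippocampus, with 6.07 in cortex, and 5.26, 3.51 and 3.22 in cerebellum. All 4 regions differed from their neighbours (adjusted p at most 0.0186), and bulb exceeded hippocampus by 4.13 log2 (SE 0.21, adjusted p = 3.79e-08). Hcn3 was 50.4, 57.4 and 49.4 CPM in bulb and 13.2, 13.1 and 12.2 in cerebellum (2.03 log2, SE 0.12, adjusted p = 5.02e-08), while cortex (17.1), hippocampus (14.4) and cerebellum did not differ detectably from one to the next (adjusted p = 0.224 and 0.245). Annotated Pklr exons on the other strand cover 17.1% of Hcn3 exons, and whether counting used the strand is not stated, so Hcn3 is uncertain. A430018G15Rik likewise covers 15.99% of Cacnb4 exons, and 6 other channel genes share under 5% with any single antisense gene (Cacnb2 with each of 2, at 4.67% and 1.81%). Hcn2 ranged only from 141 CPM in cerebellum to 107 in hippocampus (0.39 log2, SE 0.10, adjusted p = 0.00612).

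Trpc4 was the most regional of the remaining cation channels. It was 70.2, 74.9 and 63.1 CPM in wild-type hippocampus and 3.30, 1.98 and 2.42 in cerebellum, with 27.2 in bulb and 21.5 in cortex (hippocampus minus cerebellum 4.76 log2, SE 0.18, adjusted p = 1.52e-09). Trpc5, its closest relative, was 25.0, 2.38 and 19.7 CPM in hippocampus and 5.88, 0.266 and 5.06 in bulb. Library 2 was the lowest in both, and the difference of 2.08 log2 did not pass (SE 1.12, adjusted p = 0.170), whereas 2.03 without number 2 (adjusted p = 7.00e-05) and 2.12 with the block (SE 0.39, adjusted p = 0.00173) did. Trpc1 was 33.5 to 38.5 CPM in 3 regions and 18.7 in the bulb (cortex minus bulb 1.04 log2, SE 0.16, adjusted p = 0.000212). Nalcn, the sodium leak channel, ran from 155 CPM in cortex to 117 in cerebellum (0.40 log2, adjusted p = 0.0894), and at 0.34 it passed without number 2 (adjusted p = 0.00899), as did 0.42 with the block (0.00175).

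How much of each family a gene makes up can be compared only per length, so counts were divided by exon length (CPM per kilobase of exon, RPKM). Exon lengths come from GENCODE M21 and not from the annotation used for counting. In wild-type cerebellum Cacna1g made up 78.0% of the 3 T-type pores and Cacna1h 1.43%, whereas in hippocampus Cacna1h made up 49.2% and Cacna1g 24.2%. Cacnb4 made up 65.6% of the beta subunits in cerebellum, and Cacnb3 led with 48.9% in cortex, 48.6% in hippocampus and 61.0% in bulb. Cacna2d2 made up 65.7% of the 3 alpha2delta genes in cerebellum, where Cacna2d1 made up 18.6%, and in the bulb Cacna2d1 made up 77.1%.

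Sodium channel pores shifted less. Scn2a was 32.8% to 42.0% of the 4 genes in every region and Scn8a 25.7% to 40.5%, while Scn3a went from 0.385% in cerebellum to 18.5% in bulb. Their summed level was 82.0 ± 14.2 RPKM (SD, n = 3) in cerebellum and 36.5 ± 10.6 in bulb. Cacna1a made up 38.9% of the 8 calcium channel pores in cerebellum and 12.3% in bulb. With the length of the longest coding transcript instead, the leading gene was the same in 16 of 20 combinations of family and region. In wild-type hippocampus Cacna2d3 then led with 47.8% against 44.7% for Cacna2d1.

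**Figure D4:**
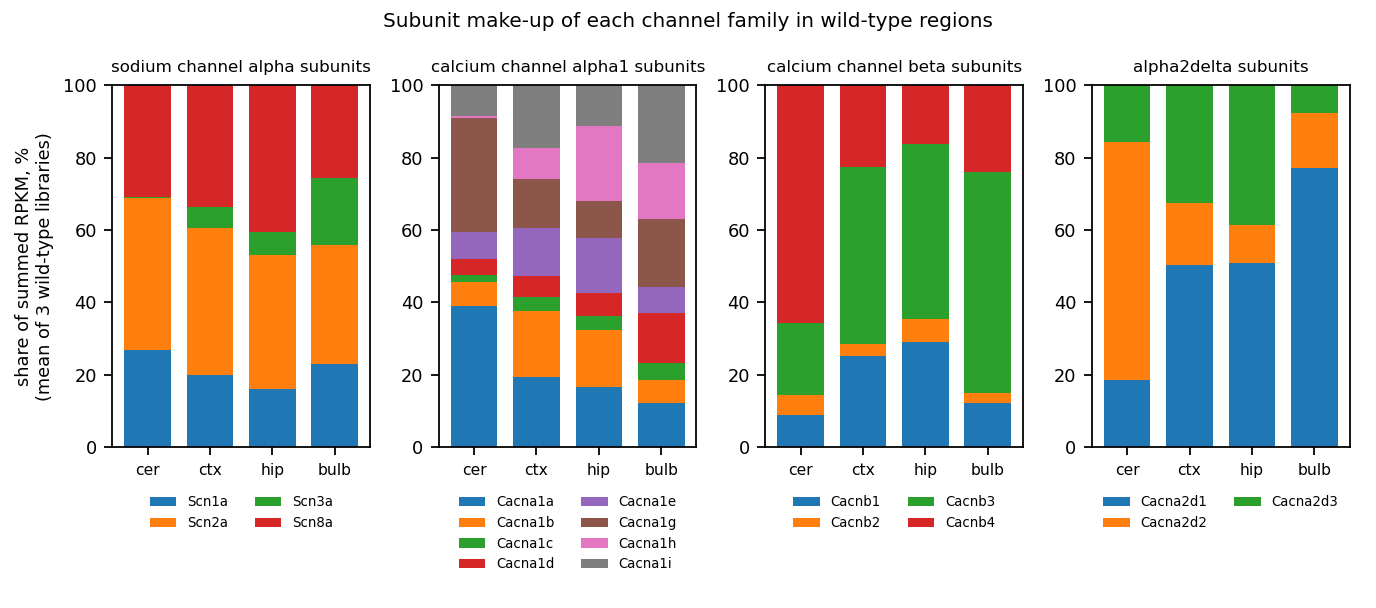
Stacked bars give each gene's share, in percent, of the summed RPKM of its family in wild-type cerebellum (cer), cortex (ctx), hippocampus (hip) and bulb, as the mean of 3 libraries. In the cerebellum Cacna1a (38.9%), Cacnb4 (65.6%) and Cacna2d2 (65.7%) take larger pieces than in the other regions, and in the bulb Scn3a does (18.5%).

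Related genes of the same complexes were as regional. Of 34 listed genes (other sodium, calcium, HCN and Trpc subunits, Nalcn partners, initial segment proteins and intracellular FGFs), 33 were measured and 29 of those differed among wild-type regions (67.8% of all genes). Cacng5 and Fgf13 were among the 4 with the smallest p (adjusted p = 6.79e-10 and 4.60e-09). Fgf13, an intracellular FGF that binds sodium channels, was 248.5, 250.0 and 222 CPM in wild-type hippocampus and 32.1, 24.1 and 28.0 in cerebellum.

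The next comparison asked whether any of the 29 genes differed between knockout and wild-type tissue. None passed an adjusted p of 0.05 in the cerebellum, hippocampus or bulb (0.00% of all genes called in each), in the cortex (0.0379%), or on average over the regions (2.68%, of which 1.81% higher and 0.863% lower), and none had an effect that differed between regions (0.0232%). At an unadjusted p under 0.05 the counts were 1, 2, 1, 0, 2 and 1 of 29 in the same order, beside 5.48%, 5.16%, 5.33%, 4.20%, 14% and 2.54% of all genes. DESeq2 and limma-voom also called 0 members in each of these 6 comparisons. The average effects ran from -0.13 to 0.15 log2 with a median of 0.04, beside -0.00118 for all genes, and 22 of 29 lay above 0. The 95% interval of the average effect stayed within 0.5 log2 on either side of 0 for 25 genes, and reached beyond it for Cacna1c, Cacna1e, Scn3a and Trpc5. Number 2 was the lowest library in 7 of 8 groups for Cacna1c and Cacna1e, in 8 for Trpc5 and in 5 for Scn3a. With the replicate block all 29 intervals stayed within 0.5 log2, and their median half-width was 0.0813 log2 in place of 0.194. In single regions the intervals stayed within that range for 24 genes in the cortex, 16 each in the cerebellum and hippocampus, and 13 in the bulb.

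Equal-numbered knockout and wild-type libraries deviated together in cerebellum, hippocampus and bulb, most strongly for number 2. Numbers 1 and 3 were not clearly told apart, and in the bulb they correlated across as much as within, so pairing by number is uncertain. With the replicate number as a block 2 of 29 genes rose on average over the 4 regions, the cortex included, against 7.27% of all genes. The share of channel genes was thus no higher than that of genes at large. They are Cacnb1 and Cacnb3, both calcium channel beta subunits, and neither passed when libraries of 1 genotype and number were treated as correlated (adjusted p = 0.679 and 0.884). Cacnb1 was 66.7, 79.0 and 66.6 CPM in wild-type bulb libraries 1 to 3 and 82.2, 96.1 and 86.9 in the knockout ones, and in cortex 187, 172 and 143 against 195, 181 and 194. In hippocampus it was 153, 162 and 123 against 168, 178 and 150.0, and in cerebellum 29.4, 30.8 and 27.2 against 25.6, 31.2 and 25.1. The groups were apart only in the bulb, and the knockout library was the higher of the pair in 10 of 12 pairs. Pair counts, here and below, include the cortex, where numbers were not taken as pairs. The pairs may not be independent, and no such counts are given for all genes. The average was 0.15 log2 (SE 0.06, adjusted p = 0.231) without the block and 0.15 (SE 0.04, adjusted p = 0.0221) with it.

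Cacnb3 was 230.2, 233 and 185 CPM in wild-type hippocampus and 274, 254 and 221 in knockout hippocampus, groups that overlap. It was 299.5, 349 and 291 in wild-type bulb against 322, 363 and 332. The knockout library was the higher in 11 of 12 pairs, and the average was 0.12 log2 without the block (SE 0.06, adjusted p = 0.371) and 0.13 with it (SE 0.03, adjusted p = 0.0220). Cacnb4, the cerebellar beta subunit, was higher in the knockout in only 3 of 12 pairs, at -0.13 log2 (adjusted p = 0.803, or 0.0542 with the block). Without the block the p of Scn2b on average lay between those of Cacnb1 and Cacnb3, at 0.12 log2 (SE 0.05, adjusted p = 0.316, or 0.0769 with the block).

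**Figure D5:**
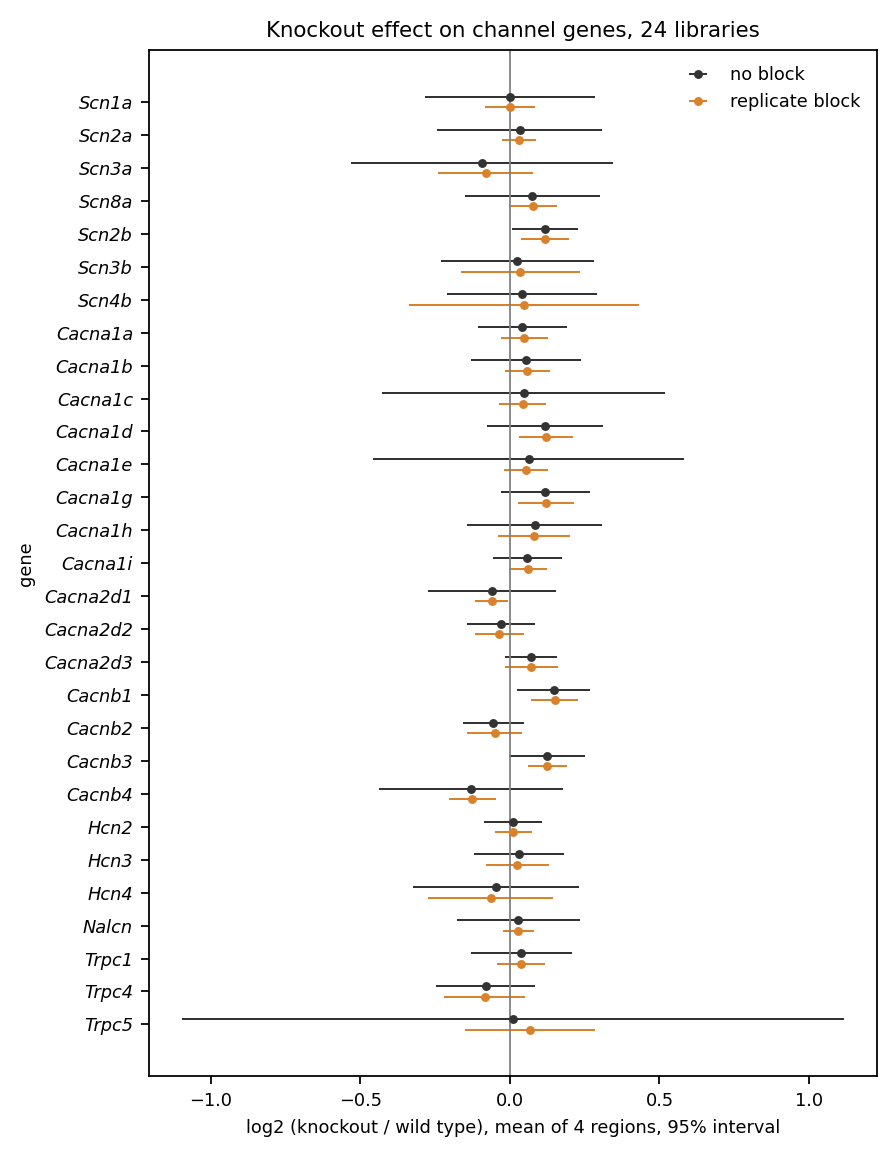
Points are the knockout effect on each gene in log2, averaged over the 4 regions, with 95% intervals, without (black) and with (orange) the replicate block, from 24 libraries. Cacnb1, at 0.15, has the highest estimate with the block, and the widest interval without it belongs to Trpc5. The intervals are not adjusted for the number of genes. With the block only Cacnb1 and Cacnb3 pass after adjustment (7.27% of all genes).

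In single regions 6 gene and region combinations had groups that did not overlap. In the bulb these were Cacnb1, Cacna2d2 and Scn3b, all higher in the knockout (10.0% of all genes did not overlap there). The bulb knockout libraries were also the deeper ones, at 33.8 to 40.5 M counts against 21.1 to 27.2 M, and the part of depth was not tested. Scn3b was 193, 181 and 189 CPM in wild-type bulb against 207, 209.8 and 205 in the knockout (0.13 log2, SE 0.07, adjusted p = 0.956). Cacna2d2 was 38.6, 35.8 and 36.6 CPM against 42.4, 43.7 and 39.9 (0.17 log2, SE 0.07, adjusted p = 0.934). In the cortex no channel gene was apart (9.14% of all genes), and the smallest p belonged to Cacnb1 (0.17 log2), Scn8a (0.14) and Cacna2d3 (0.12), each with an adjusted p of 0.9998.

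In the hippocampus Trpc4 and Cacnb2 were apart, both lower in the knockout (10.4% of all genes). Trpc4 was 70.2, 74.9 and 63.1 CPM in wild type and 51.4, 59.8 and 59.8 in knockout (-0.29 log2, SE 0.10, adjusted p = 0.954). Cacnb2 was 90.8, 102 and 84.6 CPM against 81.2, 78.5 and 78.6 (-0.22 log2, SE 0.09, adjusted p = 0.956). These libraries also differed in choroid plexus, whose 6 markers, none at 0 counts, summed to 38.4 to 3251 CPM in wild-type hippocampus and to 34.7 to 45.7 CPM in the knockout, and their part in these values was not tested. In the cerebellum only Cacnb2 was apart, higher in the knockout (11.0% of all genes), at 62.0, 59.3 and 61.9 CPM against 54.7, 55.8 and 53.6 (0.16 log2, SE 0.07, adjusted p = 0.907). Choroid plexus markers summed to 17.6 to 2347 CPM in wild-type and 356 to 1278 CPM in knockout cerebellum. Cacna1d (0.27 log2, adjusted p = 0.938) and Scn2b (0.20, 0.941) had the next smallest p there, and Cacna2d2 had the third smallest in the hippocampus (-0.28, 0.991).

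The make-up of each family differed between genotypes by -4.43 to 3.73 percentage points over 88 shares of gene and region, with a median size of 0.674. The lowest was Cacna2d1 in the bulb (77.1% ± 2.85 in wild type and 72.7% ± 5.40 in knockout, SD, n = 3) and the highest Cacna2d2 there (15.2% ± 2.171 and 18.9% ± 3.797). For 6 of the 88 shares the groups did not overlap, among them Cacnb1 in the bulb (12.2% ± 1.16 and 14.5% ± 1.10) and Cacnb2 in the hippocampus (6.32% ± 0.444 and 5.04% ± 0.167). By level, 9.14% to 11.0% of all genes had groups that did not overlap within a region. No such background was made for shares, and these shares were not tested. In the cerebellum Cacna1g made up 78.0% of T-type transcripts in wild type and 78.3% in knockout, Cacnb4 65.6% and 65.9% of the beta subunits, and Cacna2d2 65.7% and 66.8% of alpha2delta. Of the 33 measured related genes, 0 passed on average over the regions, 1 having an unadjusted p under 0.05. That gene was Fgf12, of the same family as Fgf13 (-0.12 log2, SE 0.05, adjusted p = 0.227). By region 0 of 31 or 32 tested related genes passed in each.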

How the data were processed

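The authors deposited raw counts per gene for 24 libraries. The tools named per the submitters' processing notes are STAR 2.5.1b, HTSeq 0.6.1p1 and bcl2fastq 2.17.1.14, with the build mm9, and the strand setting of the counting is not given in the sources used here. Per the labels' protocols, RNA was extracted with TRIzol and libraries came from a strand-keeping mRNA kit. Summary lines (8.22% to 16.8% of reads in no feature) were left out. Counts were tested in R 4.3.3 with edgeR 4.0.16 (filterByExpr, TMM factors, robust quasi-likelihood F test, Benjamini-Hochberg over all genes of a comparison, threshold 0.05), with DESeq2 1.42.0 and limma 3.58.1 (voom) as alternatives, after a test on simulated data. Region pairs were fitted over the 12 libraries of a genotype, the knockout by region over 6 libraries and on average over 24. CPM use TMM factors. RPKM are CPM divided by exon length from GENCODE M21.

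The replicate number was also used as a block. Deviations of equal-numbered knockout and wild-type libraries correlated at 0.236, 0.546 and 0.235 in cerebellum, 0.304, 0.482 and 0.240 in hippocampus, 0.304, 0.668 and 0.166 in bulb, and 0.338, 0.553 and -0.071 in cortex, so numbers were taken as pairs in the first 3 regions only; the block for the average covers all 4. Between regions of 1 genotype every such pair exceeded 0.1 in 5 of 6 region pairs in wild type and 4 of 6 in knockout. Libraries of a group differed by more than counting noise (chi-square per degree of freedom 6.97 to 60.0). All 29 genes are described, per library where regional means differ by over 4 times, and where no gene passed a knockout comparison the 3 with the smallest p are given. Other genes given per library, and the Cacnb3, Cacnb4 and non-overlapping knockout values, were chosen after their values were seen. Values of some related genes are not reported here. The members and lists were chosen with earlier results of these data known.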

Additional observations from a re-analysis of the deposited data

Results flagged for a closer look

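The Cacnb2 groups were apart in opposite directions in 2 regions. Every knockout library was above every wild-type one in the cerebellum (0.1552 log2) and below in the hippocampus (-0.2221 log2). Of all genes, 11.0% had groups that did not overlap in the cerebellum and 10.4% in the hippocampus. Neither difference passed the edgeR test within its region (adjusted p = 0.907 and 0.956). The test of a difference between the regional effects gave an adjusted p of 1 over all genes, and without the libraries numbered 2 also 1. Choroid plexus markers summed to 38.4 to 3251 CPM (median 2467) in the same wild-type hippocampus libraries. In the knockout ones they summed to 34.7 to 45.7 CPM (median 38.95). The ranges overlap only through the lowest wild-type library. In the cerebellum the sums were 17.6 to 2347 CPM and 356 to 1278 CPM, which overlap too. The part of choroid plexus was not tested.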

How the results depend on the processing

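Each count of channel genes was recomputed with DESeq2, limma-voom, library totals, no filter, the replicate block, all libraries in 1 fit, without each region, a 2-fold minimum for region pairs, leaving out each library in turn, and, chosen after seeing the data for all but the average knockout effect, without the libraries numbered 2. Apart from leaving out single libraries, 136 of 141 recomputed counts stayed within 1.5 times the value given, and no result changed direction. The replicate block raised the average knockout count from 0 to 2 (Cacnb1 and Cacnb3) and changed no other knockout call. Between regions the block gave 13 in place of 8 genes for wild-type cortex against hippocampus and moved no other count by over 1.5 times. Without the libraries numbered 2 the cortex and hippocampus differed in 13 genes in wild type and in 18 in place of 10 in knockout, with fewer samples in the fit. A 2-fold minimum left 13 of 20 genes for knockout hippocampus against bulb (18.9% of all genes passed and reached 2-fold). Leaving out single libraries moved no count by over 1.5 times. Of 88 wild-type shares per length, 44 moved by over 1 SD with another gene length, so shares of close size should not be ordered. Trpc5, Scn3a, Hcn4, Scn4b and Trpc4 rest on few counts in some libraries (8 for Trpc5 in wild-type bulb 2). Hcn4 had 28 to 48 counts in wild-type hippocampus and 14 to 67 in knockout hippocampus. Intervals for some genes low in number 2 are wide.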

Other observations

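Several genes that were low in the cerebellum were highest in the same cerebellum library, a pattern chosen after the values were seen. Of the 10 genes with their lowest wild-type mean there, Cacna1c, Cacna2d1, Cacnb1, Cacnb3, Hcn3 and Nalcn did not follow it. Hcn4, which did, had its lowest mean in the hippocampus. Of the 6 cerebellum libraries, wild-type 1 was the highest for Scn3a (7.95 CPM, others 1.54 to 4.85), Scn3b (11.1, others 3.64 to 6.86), Cacna1h (10.2, others 4.26 to 9.05), Hcn4 (5.26, others 3.11 to 4.14) and Trpc4 (3.30, others 1.96 to 2.92). Neurod6 and Tbr1, genes of forebrain neurons, did not share that order: in wild-type 1 Neurod6 was 4.79 CPM (others 4.78 to 6.55) and Tbr1 0.762 (others 0.478 to 0.941), whereas Camk2a was 138.5 CPM (others 86.7 to 127.5).

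Auxiliary genes of AMPA receptors that belong to the calcium channel gamma family also differed between regions, and 3 of them, chosen after their values were seen, are given here. Cacng8 was 61.5 ± 9.33 CPM (SD, n = 3) in wild-type hippocampus and 5.12 ± 0.641 in cerebellum, Cacng5 was 251.5 ± 14.9 in bulb and 13.6 ± 0.58 in hippocampus, and Cacng3 was 109 ± 17.6 in cortex and 7.54 ± 1.31 in cerebellum. Each of the 3 genes differed among the wild-type regions by the edgeR test (adjusted p = 1.71e-08, 6.79e-10 and 5.35e-09).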
